A study of Mus musculus with 6 samples.

Results

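Interferon-stimulated genes are the antiviral programme that cells switch on when interferon binds its receptors. Type I interferon acts through the kinases JAK1 and TYK2 on STAT2, which joins IRF9 in a complex that binds a promoter element called the interferon-stimulated response element (ISRE); interferon gamma acts on a different element, the gamma-activated site (GAS). Myeloid cells also make many of these transcripts at a low resting level, and factors of the IRF family such as IRF8 take part in the maturation of monocytes. A list of 35 such genes was examined. Members were found by symbol among probe sets that name exactly 1 gene, with the probe set of highest mean signal over all 6 arrays taken for each gene, and 32 of the 35 were measured among 19938 genes in all. Isg15 and Gbp2 have only probe sets that also name another gene, and Ifi44 was not analysed here.

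The cells were mouse URE cells, a single leukaemia line; the name stands for an upstream element of the PU.1 gene that such mice lack, so low PU.1 is background to both groups. Cells labelled shHLX received a lentiviral hairpin aimed at the homeobox gene Hlx, and cells labelled shControl received the vector with a luciferase hairpin, which has no mouse target. Cells of both groups were transduced, sorted for the vector's green fluorescent protein and then kept in culture with conditioned media, and untransduced cells were not analysed here. Each group had 3 arrays, each from bulk RNA.

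Hlx itself had log2 signals of 10.08, 10.06 and 10.17 on the arrays labelled shHLX, against 10.21, 10.12 and 10.20 on the shControl arrays. The groups overlapped, and the mean with shHLX stood at 95.1% of control, with 95% limits of 87.8% and 103%. An exact two-sided permutation test gave p = 0.2, and 0.1 is the lowest it can reach with 3 arrays in each group. The arrays therefore do not show the named knockdown, and every direction below rests on the labels. Elane, a granule protease gene of myeloid progenitors, read 13.96, 13.94 and 13.96 on the shHLX arrays, against 14.04, 13.98 and 13.98 on the shControl arrays. Of 12 myeloid progenitor markers, 4 passed limma at an adjusted p under 0.05, or 33.3%, against 6.18% of all genes. Of these, Cd33 and Lyz2 rose and Mpo and Kit fell, and all 4 held whichever array was left out. Differences across the 12 ran from -1.46 to 2.14 (shHLX minus shControl, log2 signal), so the groups were not alike in these markers. The second principal component, with 18.1% of the variance, set shHLX 3 (9.10) and shControl 1 (9.53) apart from the other arrays (-9.04 to -0.64).

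Most interferon-stimulated genes differed little between the groups. Across all genes, limma called 6.18% (adjusted p under 0.05 with Benjamini-Hochberg adjustment over the 19938 genes, 3.75% higher and 2.43% lower with shHLX). Of the 32 members, 2 were called, or 6.25%, which is close to that background: Isg20 and Stat2, both higher on the arrays labelled shHLX. The other 30 did not pass. The median difference of the members (shHLX minus shControl, log2 signal) was 0.01, against -0.01 over all genes, with 18 members above 0 and 14 below. At an unadjusted p under 0.05 there were 6 members (Isg20, Ifit2, Parp14, Xaf1 and Stat2 higher, Ifi35 lower), against 19.4% of all genes. The groups did not overlap for 10 of the 32, or 31.2%, against 26.2% of all genes.

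Confidence intervals bound the difference in signal gene by gene, not for all members together. They rest on the spread between these arrays, which may be technical. The 95% confidence interval excluded a difference of 1.3-fold or more in either direction for 27 members, or 84.4%, against 90.6% of all genes. It excluded 1.5-fold for every measured member except Isg20. These limits are on the scale of the signal: no detection values were used here, and a dim probe set understates a change in RNA. Of the members, 7 (Ifit1, Ifit3, Mx1, Mx2, Rtp4, Cmpk2 and Ifi27l2a) had a mean signal below the 25th percentile of all genes. In bulk RNA, a change in all cells and a larger change in some of them cannot be told apart.

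**Figure D1:**
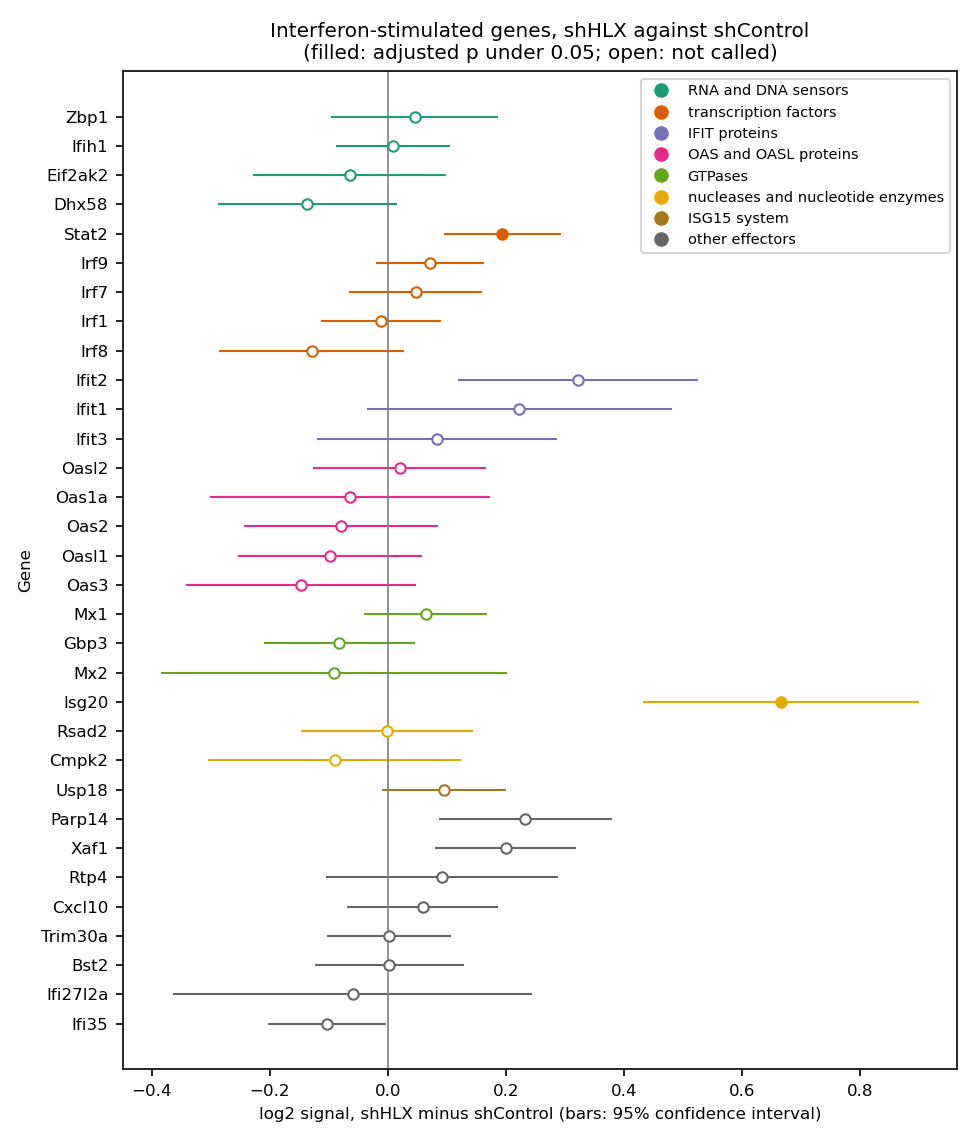
Log2 difference in signal (horizontal axis, shHLX minus shControl) of the 32 measured interferon-stimulated genes (vertical axis), coloured by role, with limma's 95% confidence interval. Isg20 (0.67) and Stat2 (0.19) are filled as called, and the 30 open points lie between -0.15 and 0.32.

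Isg20 encodes an exonuclease that degrades single-stranded RNA and restricts RNA viruses. Its probe set (10554240, Entrez gene 57444) read 9.96, 9.69 and 9.63 on the arrays labelled shHLX, against 9.05, 8.99 and 9.24 on the shControl arrays. The lowest shHLX value lay above the highest control value. The means were 9.76 ± 0.18 with shHLX and 9.09 ± 0.14 with shControl (SD, n = 3 each), a rise of 1.59-fold (95% confidence interval 1.35 to 1.87, limma adjusted p = 0.00709). The call held whichever array was left out (adjusted p 0.00877 to 0.0338), and was lost without variance moderation (adjusted p = 0.0925).

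The other genes of nucleic acid and nucleotide enzymes were not called. Rsad2, which encodes viperin, an enzyme that makes a chain-terminating nucleotide, read 6.30, 6.30 and 6.43 with shHLX, against 6.26, 6.32 and 6.44 with shControl (0.999-fold, 0.903 to 1.11). Cmpk2, the nucleotide kinase gene that lies beside Rsad2 on chromosome 12 and whose product supplies its substrate, read 5.19, 5.15 and 4.91, against 5.03, 5.26 and 5.24 (0.939-fold, 0.810 to 1.09). In both genes the groups overlapped.

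Among the transcription factor genes, Stat2, which encodes a signal transducer of the type I interferon receptor, was the called member. Its probe set (10367224, Entrez gene 20847) read 10.04, 10.00 and 9.97 on the arrays labelled shHLX, against 9.80, 9.85 and 9.79 on the shControl arrays, with no overlap. The rise was 1.14-fold (95% confidence interval 1.07 to 1.23, limma adjusted p = 0.0392). The call was lost when any 1 of the 6 arrays was left out (adjusted p 0.0669 to 0.164).

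Irf9, the gene of the DNA-binding partner of STAT2, read 8.35, 8.37 and 8.35 with shHLX, against 8.28, 8.28 and 8.30 with shControl. These narrow groups did not overlap, but the difference was 0.07 and was not called (adjusted p = 0.379, and 0.0356 without variance moderation). Irf7, which encodes the factor that amplifies interferon alpha production, differed by 0.05 and Irf1 by -0.01. A second probe set of Irf1 differed by 0.04, also not called. Irf8 read 7.51, 7.61 and 7.38 with shHLX, against 7.59, 7.59 and 7.70 with shControl, a difference of -0.13 (SE 0.067, adjusted p = 0.354). The Irf8 groups overlapped.

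The promoters of both called genes are shown because 1 holds the letters of the type I interferon element and the other does not. Sequences are from RefSeq (GRCm38.p6), from 250 bases before to 50 after the annotated start, on the gene's strand, and capitals mark the letters searched for on both strands: GAAA and GAAA with any 2 bases between them (on the other strand, TTTC and TTTC) for the ISRE core in Stat2, and TTCNNNGAA for the GAS core in Isg20, in the 1 of its 3 windows that holds it.
Stat2 at chr10:128270248-128270547 (+): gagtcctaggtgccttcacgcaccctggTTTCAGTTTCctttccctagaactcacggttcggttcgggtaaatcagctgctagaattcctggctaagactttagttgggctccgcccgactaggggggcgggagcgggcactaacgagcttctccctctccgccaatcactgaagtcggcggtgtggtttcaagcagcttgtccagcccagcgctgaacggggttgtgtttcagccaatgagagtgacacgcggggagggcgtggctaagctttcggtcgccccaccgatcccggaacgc
Isg20 at chr7:78913174-78913473 (+): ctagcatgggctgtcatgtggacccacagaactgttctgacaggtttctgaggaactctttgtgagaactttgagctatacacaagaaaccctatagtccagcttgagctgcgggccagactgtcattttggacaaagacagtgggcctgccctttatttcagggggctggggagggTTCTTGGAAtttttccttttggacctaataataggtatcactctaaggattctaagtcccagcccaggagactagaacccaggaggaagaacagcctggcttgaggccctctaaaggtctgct

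The ISRE letters of Stat2 begin at -222 from the start, and none of the 3 Isg20 windows holds them. Of the 32 measured members, 23 had a promoter in the table, and 12 of the 23 held the ISRE letters in at least 1 window, against 3.99% of all genes in the table. TTCNNNGAA was held by 8 of the 23, against 9.55% of all genes. The stretches below, from members with the ISRE letters that differ in how they are built and placed, show the element in capitals with 10 bases on either side.
Ifit1 at chr19:34640775-34640804 (+): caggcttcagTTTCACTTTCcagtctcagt
Ifit1 at chr19:34640794-34640823 (+): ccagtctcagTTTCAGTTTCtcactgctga
Ifit3 at chr19:34583363-34583392 (+): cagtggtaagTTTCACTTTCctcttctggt
Ifit3 at chr19:34583397-34583426 (+): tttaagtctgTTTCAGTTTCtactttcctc
Oas1a at chr5:120907520-120907555 (-): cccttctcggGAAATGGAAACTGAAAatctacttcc
Oas3 at chr5:120777715-120777744 (-): gcagggaggaGAAAACGAAAgtgaagggag
Rsad2 at chr12:26456553-26456582 (-): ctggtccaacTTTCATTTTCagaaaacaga
Bst2 at chr8:71537577-71537612 (-): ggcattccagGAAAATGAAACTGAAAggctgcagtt
Cxcl10 at chr5:92349083-92349112 (-): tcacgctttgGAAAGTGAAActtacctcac
Gbp3 at chr3:142559989-142560024 (+): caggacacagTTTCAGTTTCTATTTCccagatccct

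Ifit1 and Ifit3 each carry a pair of cores, while Oas1a, Bst2 and Gbp3 carry overlapping cores. The difference between members with and without the ISRE letters was not tested. The 12 with them had a median of 0.002 (from -0.15 for Oas3 to 0.22 for Ifit1), and the 11 without had a median of 0.02 (from -0.13 for Irf8 to 0.67 for Isg20). Each group held 1 called gene. A match is a run of letters, not a measured binding site, and no match says only that these letters are not in this window.

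IFIT1 binds viral RNA that lacks the host's cap marks, and the IFIT genes lie near each other on chromosome 19. All 3 measured genes had a higher mean with shHLX and none was called. Ifit2 read 7.13, 7.35 and 7.44 with shHLX, against 6.88, 7.06 and 7.02 with shControl, without overlap. Its difference was 0.32 (SE 0.087, limma adjusted p = 0.082), and it was called when shHLX 1, its lowest shHLX array, was left out (adjusted p = 0.0306).

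Ifit1 read 5.98, 6.31 and 6.19 with shHLX, against 5.73, 5.99 and 6.09 with shControl (difference 0.22, adjusted p = 0.329). Ifit3 read 5.02, 5.36 and 5.28, against 5.07, 5.18 and 5.16 (difference 0.08, adjusted p = 0.658). Both overlapped between the groups. In all 3 genes the lowest shHLX value was that of shHLX 1, and the lowest control value that of shControl 1.

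The oligoadenylate synthetases make the messenger that activates RNase L when they meet double-stranded RNA. None of the 5 OAS and OASL genes was called, all overlapped between the groups, and 4 had a lower mean with shHLX. Oas3 read 6.83, 6.65 and 6.66 with shHLX, against 6.75, 7.03 and 6.80 with shControl (difference -0.15, adjusted p = 0.393). Oasl1, whose product restrains Irf7 translation, read 7.74, 7.86 and 7.61, against 7.78, 7.86 and 7.86 (difference -0.10, adjusted p = 0.479). Oas2 differed by -0.08, Oas1a by -0.06 and Oasl2 by 0.02. Oas1a varied most among the shHLX arrays, at 7.08, 7.30 and 6.86. Genes of the Oas1, Ifit and Trim30 clusters have close relatives, and cross-hybridisation of their probe sets was not tested.

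None of the 4 sensor genes was called. Ifih1, which encodes the double-stranded RNA sensor MDA5, differed by 0.01 (SE 0.042) and its interval allowed at most 1.08-fold. Dhx58, which encodes the regulator LGP2, read 7.89, 8.11 and 8.02 with shHLX, against 8.22, 8.11 and 8.10 with shControl (difference -0.14, adjusted p = 0.309), with overlapping groups. Eif2ak2, the gene of the kinase PKR that halts translation, differed by -0.06, and Zbp1, whose product triggers necroptosis, by 0.05.

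The remaining effectors spread on both sides of 0. Parp14, which encodes an ADP-ribosyltransferase, read 8.19, 8.15 and 8.34 with shHLX, against 8.07, 7.95 and 7.96 with shControl (difference 0.23, SE 0.063, adjusted p = 0.0812). Xaf1, whose product opposes the apoptosis inhibitor XIAP, read 7.09, 7.12 and 7.13, against 6.89, 7.0 and 6.85 (1.15-fold, 1.06 to 1.25, adjusted p = 0.069). Neither gene overlapped between the groups and neither was called, though Xaf1 was called without shControl 2 (adjusted p = 0.0424).

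Ifi35, which encodes a leucine zipper protein that partners with NMI, read 8.29, 8.34 and 8.27 with shHLX, against 8.41, 8.38 and 8.42 with shControl. All its shHLX values lay below all control values, with a difference of -0.10 (SE 0.043, adjusted p = 0.241). Usp18, the protease gene that removes ISG15 and restrains the interferon receptor, differed by 0.09 without overlap (adjusted p = 0.304). Mx1, an antiviral GTPase gene, differed by 0.06 without overlap, and Mx2 by -0.09 with overlap. Gbp3, a guanylate-binding protein gene, differed by -0.08 with shHLX below.

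Bst2, whose product tetherin holds budding virus at the cell surface, and Trim30a, a ubiquitin ligase gene, differed by 0.002 each. Cxcl10, the gene of a chemokine for T cells, differed by 0.06, the receptor chaperone gene Rtp4 by 0.09 and Ifi27l2a by -0.06, and none of these was called.

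**Figure D2:**
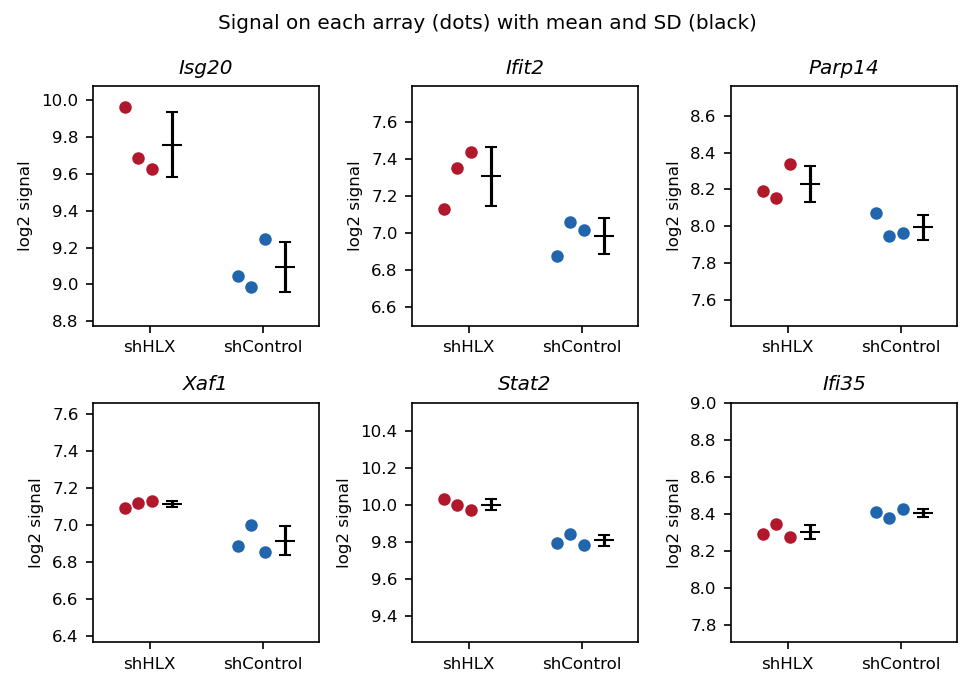
Log2 signal (vertical axis, each panel spanning the same range) of the 6 members with an unadjusted p under 0.05, on the shHLX (left) and shControl (right) arrays, with mean and SD in black. The groups do not overlap in any panel, and the gap is widest for Isg20.

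The arrays of a group also varied among themselves. Within the shHLX group, shHLX 2 held the highest value for 18 of the 32 members and shHLX 1 the lowest for 15. The median deviation of the members from their group mean was -0.02 on shHLX 1, 0.04 on shHLX 2 and -0.001 on shHLX 3, against -0.01, 0.03 and -0.02 for all genes. On shControl 1, 2 and 3 it was -0.02, 0.01 and 0.02, against -0.02, 0.02 and 0.003 for all genes. The median SD between replicates was 0.08 for the members and 0.07 for all genes, as log2 signal.

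**Figure D3:**
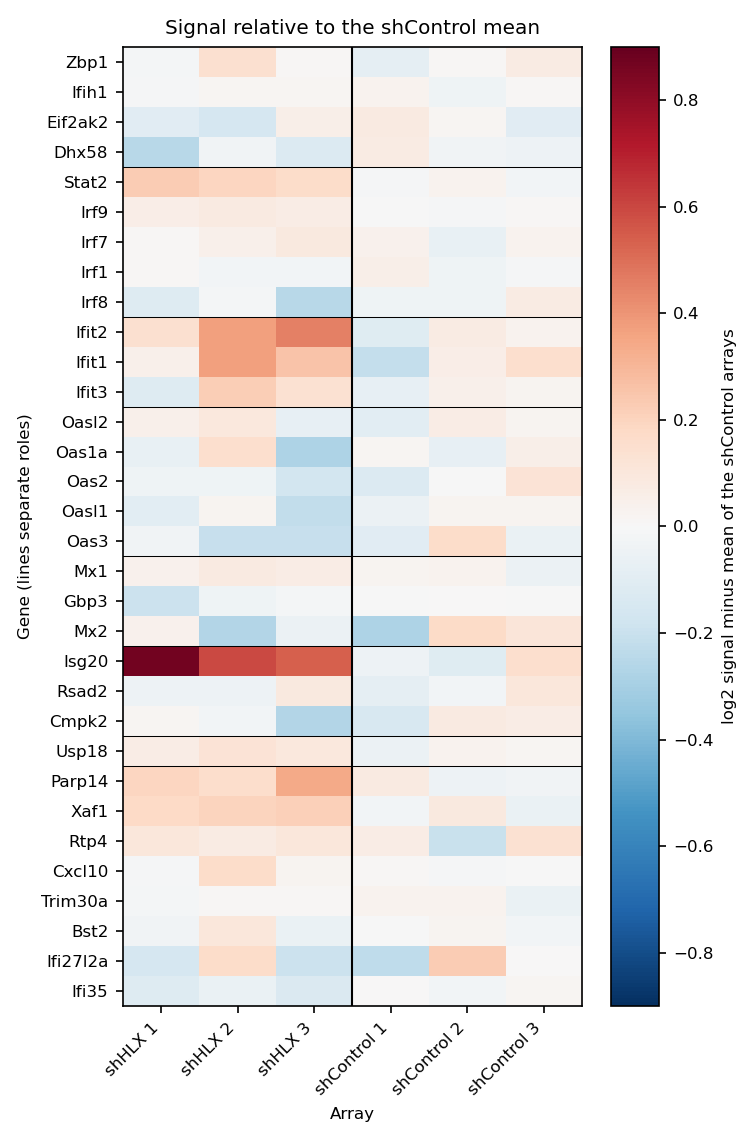
Log2 signal of each member (rows, grouped by role) on each array (columns), relative to the mean of the shControl arrays for that gene. Isg20 is the darkest row across the 3 shHLX arrays, and no column is shifted as a whole.

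Other genes of the interferon pathway were read from 7 lists. Of 135 measured genes, 9 rose and 6 fell, or 11.1%, against the 6.18% of all genes; after a second quantile normalization 8 rose and 11 fell. The lists were chosen with earlier results of these arrays known, so their share is a description. Without shControl 3 the count was 9 in all (5 higher and 4 lower).

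No interferon gene was called by limma among 16 measured, and 0 without variance moderation. At an unadjusted p under 0.05 there were 2 (Ifnz and Ifna14, both lower), against 19.4% of all genes. Of the 16, 13 had a mean signal below the median of all genes and 6 below the 25th percentile, so a change could be understated. Cross-hybridisation among the interferon alpha genes was not tested. Ifnb1 read 5.82, 5.99 and 5.71 with shHLX, against 5.92, 6.02 and 5.95 with shControl (difference -0.12, adjusted p = 0.403). Ifng differed by 0.02. Ifnz had an adjusted p of 0.0504, with a difference of -0.18, and was called under 6 of 19 alternatives.

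Of 20 receptor, JAK, STAT and regulator genes, 2 rose and 1 fell, or 15%, against 6.18% of all genes. Il10rb, which encodes a chain shared by the receptors of interleukin 10 and interferon lambda, read 9.67, 9.65 and 9.72 with shHLX, against 9.45, 9.38 and 9.38 with shControl (1.21-fold, log2 difference 0.28, SE 0.044, adjusted p = 0.0088). Ifnar1, the gene of a type I interferon receptor chain, read 9.76, 9.79 and 9.77, against 9.60, 9.62 and 9.53 (1.14-fold, 1.06 to 1.22, adjusted p = 0.0429). Neither overlapped between the groups. These genes lie side by side on chromosome 16 with Ifnar2, which differed by 0.02, and Ifngr2, which differed by 0.18 (adjusted p = 0.234).

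Ptpn6, which encodes the phosphatase SHP-1 that dampens cytokine receptor signals, read 10.39, 10.41 and 10.37 with shHLX, against 10.63, 10.62 and 10.64 with shControl, and fell by 0.24 on the log2 scale (SE 0.04, adjusted p = 0.0109). Il10rb and Ptpn6 were lost without shControl 3 (adjusted p = 0.055 and 0.065), and Ifnar1 without any 1 of the 6 arrays (up to 0.181). Ifngr1 differed by -0.04, Jak2 by -0.17 (adjusted p = 0.156), Stat3 by 0.10 and Socs3 by 0.17 (adjusted p = 0.193).

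Of 19 nucleic acid sensing genes, 2 rose and none fell, or 10.5%, against 6.18% of all genes. Sting1, the adaptor gene of the cytosolic DNA pathway, read 8.88, 9.06 and 8.93 with shHLX, against 8.08, 8.27 and 8.14 with shControl (1.73-fold, 1.55 to 1.93, adjusted p = 0.000375). Tlr7, the gene of an endosomal receptor for single-stranded RNA, read 8.47, 8.51 and 8.49, against 7.99, 7.92 and 7.92 (1.46-fold, 1.37 to 1.57, adjusted p = 0.000244). In both genes the groups were far apart relative to the replicates, and both calls held whichever array was left out.

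The other 17 genes of this list were not called. Cgas, which encodes the enzyme that makes the STING ligand, differed by 0.12 (adjusted p = 0.228). Ddx58, the RIG-I gene, differed by 0.08, and Ikbke, a kinase gene downstream of the sensors, by 0.18 (adjusted p = 0.0988). Zc3hav1 differed by 0.15 (limma adjusted p = 0.0984), Unc93b1 by 0.14 (0.189) and Traf6 by 0.13 (0.198), while Myd88 differed by -0.09 (0.356). Tlr9 differed by -0.14 and Tlr3 by -0.03. Of the 19 genes, 13 lay above 0 and 6 below. The groups did not overlap for 11 of the 19 (9 with shHLX above and 2 below), or 57.9%, against 26.2% of all genes. This share was 57.1% in the p200 and IFITM list, 12.5% among the interferon genes and 35.6% over all 135 pathway genes.

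Of 41 further interferon-stimulated genes, 3 rose and 3 fell, or 14.6%, against 6.18% of all genes. Parp12, which encodes an antiviral ADP-ribosyltransferase related to Parp14, read 8.22, 8.28 and 8.40 with shHLX, against 7.63, 7.38 and 7.50 with shControl (1.74-fold, 1.54 to 1.96, adjusted p = 0.000717). The Schlafen gene Slfn2 rose 1.43-fold (1.22 to 1.68) and Samd9l 1.15-fold (1.07 to 1.24). Lgals9, which encodes galectin-9, read 9.41, 9.57 and 9.33, against 9.96, 10.03 and 10.08, and fell by 0.59 on the log2 scale (SE 0.069, adjusted p = 0.00198).

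Mov10, an RNA helicase gene, fell by 0.30 and Lgals3bp by 0.23 on the log2 scale. Parp12, Lgals9 and Mov10 were called whichever array was left out. Slfn2 was lost without shControl 3, shHLX 1 or shHLX 2 (adjusted p up to 0.0896), and Samd9l and Lgals3bp without any 1 array (up to 0.193 and 0.106). Without variance moderation these 3 were also lost, at an adjusted p of 0.149 for Slfn2, 0.092 for Samd9l and 0.0599 for Lgals3bp. Among uncalled genes of smallest p, Ifi30 differed by -0.19 (limma adjusted p = 0.0893) and was called lower under 6 of 19 alternatives. Dtx3l differed by -0.11, Znfx1 by 0.11 and Tor1aip1 by 0.13.

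The largest changes among these lists were in the p200 and IFITM families. There 2 of 14 measured genes rose and 2 fell, or 28.6%, against 6.18% of all genes. Aim2, the inflammasome sensor gene of cytosolic DNA, read 8.66, 8.47 and 8.64 with shHLX, against 6.07, 6.11 and 6.13 with shControl (5.60-fold, 5.09 to 6.17, adjusted p = 5.37e-07). Its relative Ifi203 rose 1.63-fold (1.41 to 1.88, adjusted p = 0.00301, and 0.0623 without variance moderation). Ifitm1 fell to 35.4% of control (SE 0.083 on the log2 scale, adjusted p = 4.38e-05) and Ifitm7 to 37.8% (SE 0.072, adjusted p = 3.13e-05). Ifitm3, whose product blocks viral entry, differed by -0.18 (adjusted p = 0.0515) and was called lower under 7 of 19 alternatives (adjusted p 0.00017 to 0.238). Ifi202b differed by 0.22 (limma adjusted p = 0.108) and was called under 3 of 17 alternatives. Ifitm5 differed by -0.17 (limma adjusted p = 0.142, called under 1 of 19) and Ifitm2 by -0.08.

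No gene was called among 8 interferon-inducible GTPase genes or 17 antigen presentation genes by limma, with 3 and 5 at an unadjusted p under 0.05, all of them lower with shHLX, against 19.4% of all genes in either direction. Without variance moderation 0 of them were called, while other alternatives called some. Gbp7 differed by -0.17 (adjusted p = 0.108, called under 3 of 19 alternatives) and Gbp4 by -0.31 (adjusted p = 0.0865, called under 4 of 17, among them without shControl 1 at 0.035). Psme1, a proteasome activator gene, differed by -0.18 (adjusted p = 0.0633) and was called lower under 6 of 19 alternatives (adjusted p 0.0036 to 0.265). Tapbp and Psmb8 were called under 2 of 19 each. Nlrc5, the gene of the activator of class I genes, differed by -0.14 and Tap1 by -0.005.

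**Figure D4:**
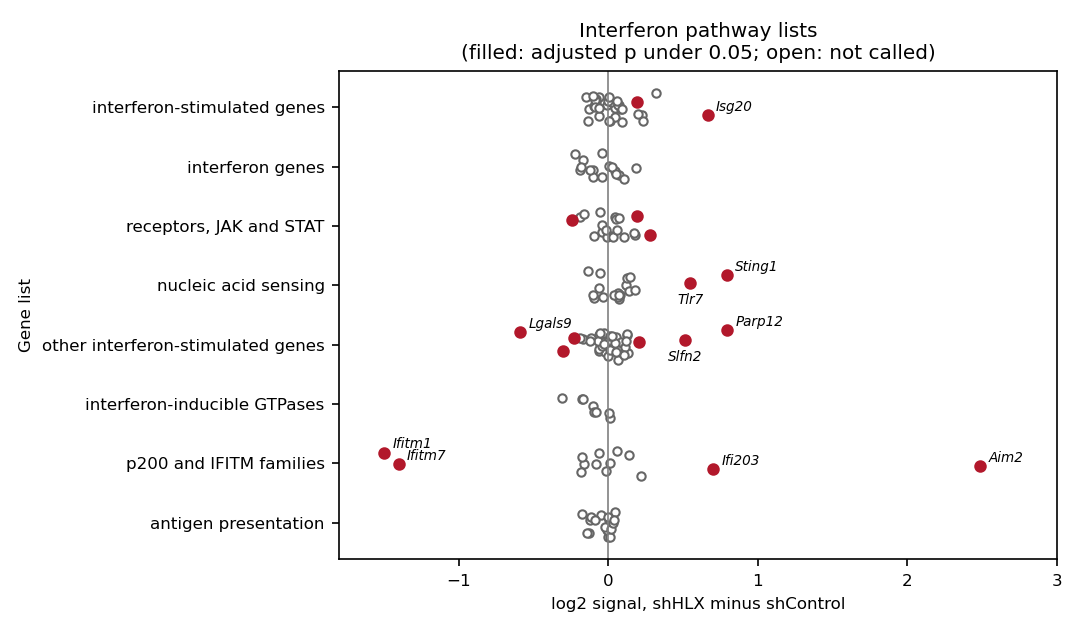
Log2 difference in signal (horizontal axis, shHLX minus shControl) of each gene in the member list and the 7 pathway lists (rows, points spread vertically at random). Filled points are called, and called genes with a difference above 0.5 in size are named, from Ifitm1 at the far left to Aim2 (2.49) at the far right.

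Markers of cell types that make or answer interferon strongly were read beside these results. None of 8 plasmacytoid dendritic cell, 11 T and NK cell or 9 B cell markers was called by limma, and 0 without variance moderation. At an unadjusted limma p under 0.05 there were 2, 1 and 0, against 19.4% of all genes. Of 12 macrophage and dendritic cell markers, Vsig4 alone was called and rose, or 8.33%, against 6.18% of all genes. The mean log2 signal of the plasmacytoid list was 6.81 to 6.90 on the shHLX arrays and 6.86 to 6.95 on the shControl arrays, and that of the macrophage list was 6.40 to 6.48 on the shHLX arrays and 6.38 to 6.48 on the shControl arrays. Whether such cells were present was not tested, since no detection values were used.

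**Figure D5:**
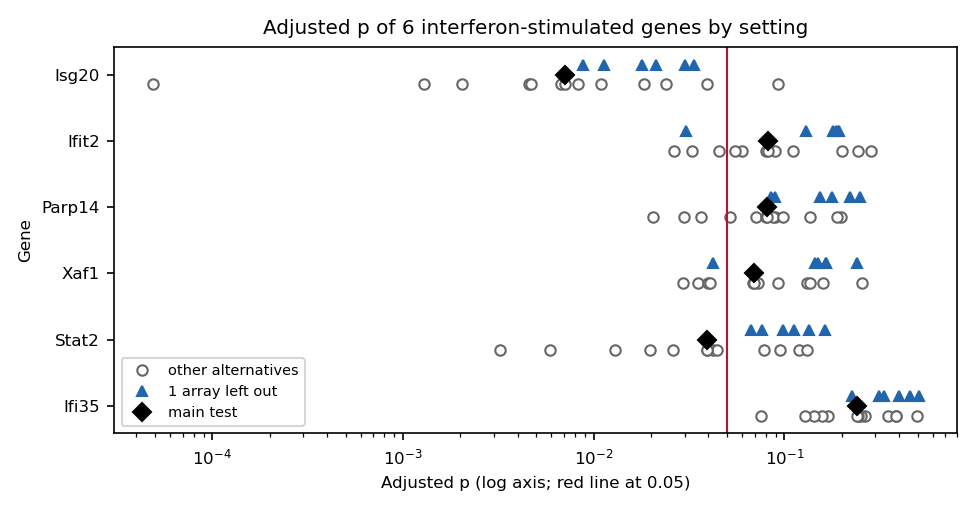
Adjusted p (horizontal log axis, threshold in red) of the 6 members with an unadjusted p under 0.05 (rows) in the main test, with 1 array left out and under the other alternatives. Isg20 stays left of the line except without variance moderation, while Ifi35 stays right of it throughout.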

How the data were processed

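Per the labels' protocols, a small amount of RNA was amplified before labelling. The authors deposited log2 signals for 35556 probe sets on 6 Affymetrix arrays, made with RMA and Affymetrix Power Tools 1.178 per the submitters' processing notes; the genome build was not given in the sources used here. Of the probe sets, 21789 named exactly 1 gene, and the brightest per gene was kept, dim ones included.

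limma 3.58.1 (R 4.3.3; lmFit and eBayes, two-sided, no covariates) compared the groups, and p-values were adjusted by Benjamini-Hochberg for 19938 genes. The code was tested on simulated data. Intervals are limma's at 95%, n counts arrays, and so few arrays limit the precision. No source used here says whether replicates were separate cultures, so p-values measure only how these samples spread, and that spread may be technical.

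The members and lists were chosen with earlier results of these data known. Values on every array are given for members with an unadjusted p under 0.05 and for the 5 largest differences in each direction. From each pathway list, every called gene is named, with some of the uncalled genes of smallest p. Others named, and the grouping by role, were chosen after the values were seen. Some list names were matched through RefSeq synonyms, such as Sting1 and Cgas. Figures were drawn with matplotlib 3.10.9. Alternatives are given in the closing section.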

Additional observations from a re-analysis of the deposited data

How the results depend on the processing

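The number of members called (2, both higher) became 4 with arrays centred on their medians, with an intensity trend or with array weights, 5 at an adjusted p under 0.10, and 1 when all probe sets were tested. It was 1 to 2 with 1 array left out (1 without shHLX 2, shHLX 3, shControl 1 or shControl 3), and 1 without shControl 1 and shHLX 3 together, an alternative chosen after seeing the data. Isg20 was called in 18 of 19 alternatives (adjusted p 4.86e-05 to 0.0925) and Stat2 in 9 of 19 (0.00325 to 0.164). Ifit2, Xaf1, Parp14 and Irf9 were called under some alternatives, and no member was called lower under any. A total of 10 members, none of them called and none differing by over 0.1 in size, changed sign under at least 1 alternative. The median of the members stayed between -0.005 and 0.03 on the log2 scale. Hlx was called under none of the 19.

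The count over all genes (1233) was 2064 above the median of signal, 2261 with an intensity trend, 800 with the replicate block, 741 without shControl 1 and shHLX 3 together, and 698 to 901 with 1 array left out (806, 698 and 766 without shControl 2, shControl 3 and shHLX 1). The count of other pathway genes (15) was 24 above the median of signal, 27 with an intensity trend and 9 to 13 with 1 array left out (9 without shControl 3). Arrays with the same replicate number did not deviate together (correlations -0.17, 0.13 and -0.15). With 3 arrays in each group a weak pairing would not show, so whether the numbers pair the samples is unknown. With the replicate block 2 members were called, Isg20 and Ifit2, and 11 other pathway genes. The cause of these differences was not tested. Signal over background was not analysed here, so how dim members are limited by it is unknown.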
